A study of Mus musculus with 9 samples.

Results

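The T lineage transcription factors described here are 10 genes, Tcf7, Lef1, Bcl11b, Gata3, Runx1, Runx3, Ikzf1, Tcf3, Tcf12 and Mef2c, taken by name from 53380 measured genes. All 10 passed the filter on low counts, as did 14098 genes in all. RNA was sequenced from cultured mouse cells of T cell acute lymphoblastic leukemia (T-ALL) whose MYC comes from a human transgene. The cells derive from tumors of EμSRα-tTA/tet-O-MYC mice of the FVB/N strain. In these mice a lymphoid enhancer and promoter drive the tetracycline transactivator and doxycycline stops MYC transcription. Cells were mock treated (MYC on), given 20 pg/mL doxycycline (MYC intermediate) or given 500 pg/mL doxycycline (MYC off) for 48 hours, with 3 libraries per group. Every group carries both transgenes, mock treatment was PBS, and no group lacked the transgenes. The methods describe sorting of single cells into clonal populations for making engineered lines, and do not say whether the culture sequenced here was 1 clone. Each value thus comes from leukemia cells of the same model, and doxycycline and MYC loss cannot be told apart. The labels do not say whether the replicates were separate cultures, and the p-values reflect no more than the variation among these 9 libraries, which may be technical.

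T cell identity is built in the thymus by transcription factors that act in sequence. Notch signals induce Tcf7 (TCF-1) and Gata3, which open the program, Bcl11b then locks in commitment, and progenitor factors such as Mef2c are shut down. Lef1 is the close relative of Tcf7, Runx1 and Runx3 control the coreceptor genes, Ikzf1 (Ikaros) restrains Notch targets and proliferation, and Tcf3 (E2A) and Tcf12 (HEB) form the E protein dimers that drive receptor gene rearrangement. Many of these genes act as tumor suppressors in T-ALL.

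The libraries held 18705516 to 39678799 counts. The transgene, listed as hMYC, averaged 1260.1 ± 75.4 CPM with MYC on, 408 ± 23.0 CPM at MYC intermediate and 3.78 ± 0.454 CPM with MYC off (SD, n = 3 each). CPM divides each count by its library total and scales every library to the same sum, and RNA per cell was not measured. In bulk RNA, fewer cells of a type and less RNA per cell cannot be told apart. The defining T cell genes Cd3e, Cd3d, Cd3g and Lck were present in every library, and the T cell marker list summed to 2523 to 2612 CPM with MYC on, 4140 to 4341 CPM at MYC intermediate and 5297 to 5542 CPM with MYC off. Some defining markers of B cells (Cd79b, Pax5 and Ms4a1), myeloid cells (Lyz2, Cd14 and Adgre1) and endothelium (Cdh5 and Kdr) had 0 counts in all 9 libraries, so that their level was at most 0.0118 CPM. This limit covers counting error only. Others were detected. The myeloid list summed to 40.6 to 43.6 CPM with MYC off and 26.6 to 30.9 CPM with MYC on, and its 2 tested genes went opposite ways, Itgam higher (22.1 CPM with MYC off and 3.88 CPM with MYC on, log2 fold change 2.46) and Csf1r lower (19.5 and 24.8 CPM, −0.38). The NK cell list (5.39 to 6.49 CPM with MYC off and 1.36 to 1.66 CPM with MYC on, mainly Tbx21) and the stromal list (209.0 to 227.8 and 89.4 to 94.3 CPM, mainly Pecam1, which T cells also express) were higher with MYC off, and the part of these lists in the results was not tested.

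Most of the factors were more abundant once MYC was lowered. Between MYC off and MYC on, 6 of the 10 rose (Bcl11b, Gata3, Runx1, Lef1, Ikzf1 and Tcf3), Mef2c fell, and Tcf7, Tcf12 and Runx3 did not pass the test. The call was an adjusted p under 0.01 in the quasi-likelihood F test of edgeR, with Benjamini-Hochberg adjustment over all 14098 genes. Over all genes tested 27.5% were called higher and 27.4% lower with MYC off, 54.9% in either direction, so that calls were common. With MYC off, all libraries lay above all MYC on libraries for 7 factors (37.2% of all genes) and below for 1 (32.8%). The median log2 fold change was 0.57 over the 10 factors and 0.03 over all genes tested.

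**Figure D1:**
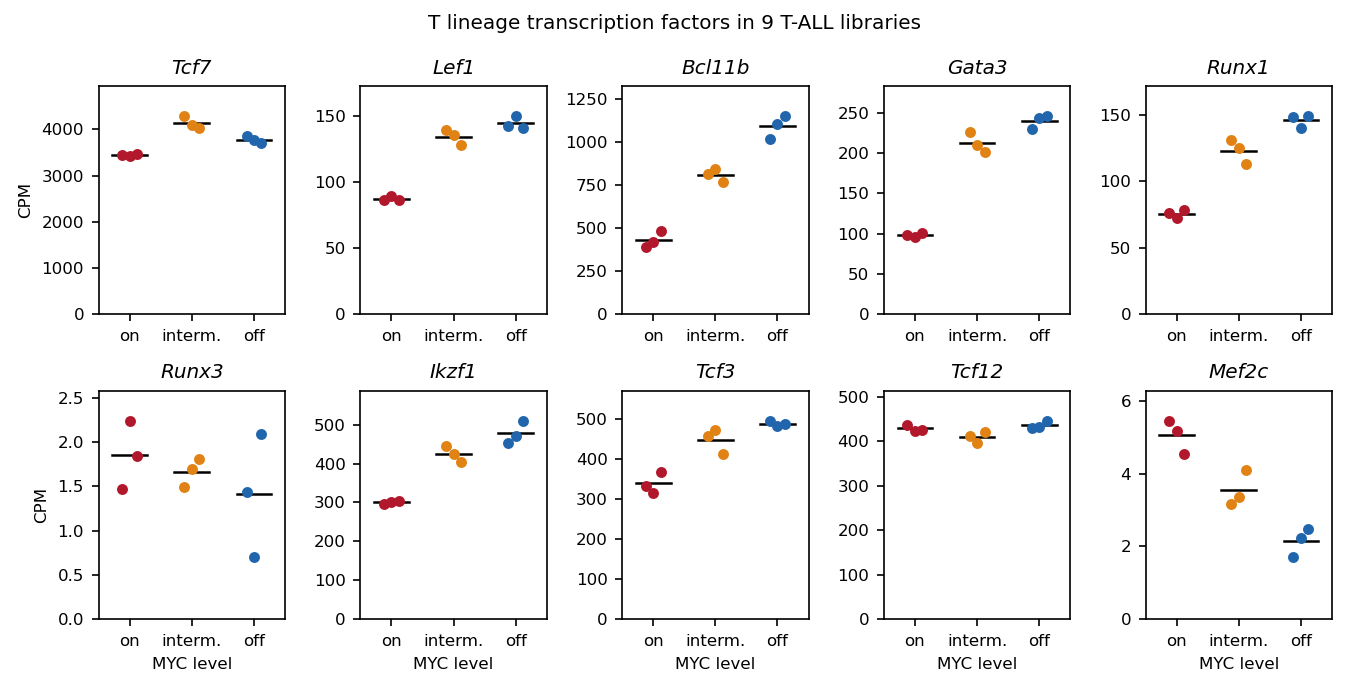
CPM of each factor (linear axis from 0) in the 3 libraries of MYC on, MYC intermediate and MYC off, with 1 point per library and a line at each group mean. Gata3 moved mainly between MYC on and MYC intermediate (98.0, 213 and 240.3 CPM), Tcf12 stayed between 397 and 447 CPM, and Mef2c had 5.06, 3.55 and 2.14 CPM.

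Per deposited gene length, Tcf7 stood far above the other factors. The deposited TPM uses a single length per gene and sums to the same total in every library. That length ran from 2625 bases for Tcf7 to 15715 for Mef2c, and its definition is not given in the sources used here. Shares and order in TPM depend on it. With MYC on, Tcf12 (429.2 CPM) stood above Tcf3 (339.2 CPM) before this correction. Tcf7 had 4424 ± 25.2 TPM with MYC on, 5227 ± 77.1 at MYC intermediate and 4815 ± 35.1 with MYC off (SD, n = 3 each). This was 83.6%, 80.2% and 75.9% of the summed TPM of the 10. The other 9 factors together had 870.4 ± 41.4 TPM with MYC on, 1292 ± 37.9 TPM at MYC intermediate and 1529 ± 71.1 TPM with MYC off. With MYC on, the order after Tcf7 was Tcf3 (282.6 TPM), Bcl11b (179.6), Ikzf1 (174.9), Tcf12 (93.0), Gata3 (82.9), Lef1 (33.5), Runx1 (21.5), Runx3 (1.25) and Mef2c (1.08). Bcl11b and Ikzf1 overlapped between libraries there, as did Runx3 and Mef2c, and all other neighbors were apart. With MYC off, Bcl11b (452.0 TPM) stood above Tcf3 (405.3) and Gata3 (202.3) above Tcf12 (94.2), with no overlap between the libraries of these neighbors.

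Tcf7 (ENSMUSG00000000782.15, mm10 chromosome 11, 52252371 to 52283014, minus strand) encodes TCF-1, an HMG box protein that initiates the T cell program and binds β-catenin. It had 3452, 3419 and 3479 CPM with MYC on replicates 1 to 3, 4296, 4105 and 4021 CPM at MYC intermediate, and 3852, 3780 and 3697 CPM with MYC off. The highest libraries were thus those of MYC intermediate, and no 2 groups overlapped. Tcf7 rose at MYC intermediate against MYC on (log2 fold change 0.27 ± 0.05 SE, edgeR adjusted p = 0.000585), where 17.4% of all genes were called higher. MYC off against MYC on gave 0.10 ± 0.05 (adjusted p = 0.125), and MYC off against MYC intermediate gave −0.18 ± 0.05 (adjusted p = 0.0165), neither of them called. MYC off against MYC intermediate was called lower with DESeq2 (adjusted p = 0.00896), with no filter on low counts (adjusted p = 0.0045) and without MYC off replicate 1 (adjusted p = 0.00739).

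Lef1 (ENSMUSG00000027985.14, chromosome 3, 131110471 to 131224356, plus strand) encodes the HMG box relative that shares the DNA motif of TCF-1 and acts with it in thymocytes. Its levels were 86.1, 89.4 and 86.6 CPM with MYC on, 139, 135 and 128 CPM at MYC intermediate, and 142, 150 and 140 CPM with MYC off. All doxycycline-treated libraries lay above all MYC on libraries. Lef1 rose by 0.69 ± 0.06 on the log2 scale with MYC off against MYC on (edgeR adjusted p = 3.34e-08) and by 0.63 ± 0.06 at MYC intermediate against MYC on (adjusted p = 3.39e-07). The remaining step, MYC off against MYC intermediate, was 0.06 ± 0.06 (adjusted p = 0.428).

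The ratio of Lef1 to Tcf7 counts, which does not depend on scaling between libraries, was 0.0249, 0.0262 and 0.0249 with MYC on, 0.0323, 0.0329 and 0.0318 at MYC intermediate, and 0.0369, 0.0396 and 0.0379 with MYC off. These 3 groups did not overlap. The log2 ratio averaged −4.71 ± 0.05 with MYC off and −5.30 ± 0.04 with MYC on (SD, n = 3 each), a difference of 0.59 (exact two-sided permutation p = 0.1, adjusted p = 0.129 over 9 ratio tests). MYC intermediate against MYC on gave 0.35 and MYC off against MYC intermediate 0.24, with the same exact and adjusted p. With 3 libraries against 3 no p below 0.1 is possible, for this and for every exact test given here. For single factors the exact p on log2 CPM was 0.1 wherever the groups did not overlap.

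Partners of TCF-1 and LEF-1 changed in both directions. In a list of 19 partners and corepressors, 16 were tested, of which 7 were higher, 1 was lower and 8 were not called with MYC off against MYC on (median log2 fold change 0.37, against 0.03 over all genes). Shares over all genes were 27.5% higher and 27.4% lower. Tle2, a Groucho corepressor, had 14.9 CPM with MYC off and 2.79 CPM with MYC on (2.38 log2), and Bcl9l, a β-catenin adaptor, had 5.60 and 2.18 CPM (1.31). Aes, a short Groucho protein, had 282.8 CPM with MYC off and 152.9 CPM with MYC on (0.85). The corepressor gene Tle1 was the lowered member, with 55.6 CPM with MYC off and 104.0 CPM with MYC on (−0.94). The β-catenin gene Ctnnb1 (−0.05, edgeR adjusted p = 0.461) and the Wnt target Axin2 (−0.22, adjusted p = 0.045) were not called.

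Gata3 (ENSMUSG00000015619.10, chromosome 2, 9857078 to 9890034, minus strand) encodes a zinc finger factor needed from the first T cell precursors to CD4 cells. It had 97.9, 95.5 and 101 CPM with MYC on, 226, 211 and 201 CPM at MYC intermediate, and 230, 244 and 247 CPM with MYC off. MYC on libraries lay well below all others. The log2 fold change was 1.26 ± 0.06 SE with MYC off against MYC on (edgeR adjusted p = 4.78e-11), 1.13 ± 0.06 at MYC intermediate against MYC on (adjusted p = 1.58e-09) and 0.13 ± 0.06 with MYC off against MYC intermediate (adjusted p = 0.096).

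Bcl11b (ENSMUSG00000048251.15, chromosome 12, 107910403 to 108003602, minus strand) encodes the zinc finger factor that seals T cell commitment. Its levels were 393, 422 and 484 CPM with MYC on, 813, 843 and 767 CPM at MYC intermediate, and 1021, 1108 and 1155 CPM with MYC off. The 3 groups did not overlap, and Bcl11b was the only factor called higher at both steps. It rose by 1.30 ± 0.07 SE on the log2 scale with MYC off against MYC on (edgeR adjusted p = 3.21e-10), by 0.91 ± 0.07 at MYC intermediate against MYC on (adjusted p = 8.28e-08) and by 0.39 ± 0.07 with MYC off against MYC intermediate (adjusted p = 0.000493), where 9.95% of all genes were called higher. Relatives of both genes were scarce. Over the 9 libraries Gata2, Bcl11a and Gata1 had 0, 2 and 7 counts. The GATA cofactor gene Zfpm1 (FOG-1) was the only tested gene of its list of 6 and was lower, with 15.8, 24.99 and 23.8 CPM with MYC off and 49.0, 43.1 and 77.2 CPM with MYC on (−1.45 ± 0.22, adjusted p = 2.79e-05).

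The promoters of these 2 genes, which rose most, are shown because MYC binds CACGTG and T cell factors often bind E-boxes, and the letters let a reader look for both. Each RefSeq window (GRCm38.p6) holds 250 bases before and 50 after an annotated start, read 5′ to 3′ on the gene's strand, with matches on either strand in capitals. The motifs searched were CACGTG (MYC), the E-boxes CAGCTG and also CACCTG, the RUNX core TGTGGT, the GATA motif AGATAA and the TCF/LEF core CTTTGA, none of which can contain another.
Gata3 promoter, chr2:9878551-9878850, minus strand: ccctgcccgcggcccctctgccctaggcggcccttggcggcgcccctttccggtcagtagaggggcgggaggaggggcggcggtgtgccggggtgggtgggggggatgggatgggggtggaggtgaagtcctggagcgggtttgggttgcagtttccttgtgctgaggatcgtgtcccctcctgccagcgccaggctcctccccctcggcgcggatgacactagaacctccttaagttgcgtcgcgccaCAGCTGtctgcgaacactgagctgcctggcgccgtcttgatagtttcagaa
Bcl11b promoter, chr12:108003365-108003664, minus strand: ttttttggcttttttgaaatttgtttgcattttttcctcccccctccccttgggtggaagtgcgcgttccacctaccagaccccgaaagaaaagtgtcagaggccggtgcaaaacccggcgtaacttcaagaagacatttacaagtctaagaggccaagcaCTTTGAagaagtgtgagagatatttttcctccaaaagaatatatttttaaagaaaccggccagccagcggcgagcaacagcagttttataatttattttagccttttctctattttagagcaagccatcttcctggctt
The Gata3 window held CAGCTG across the start and the Bcl11b window held CTTTGA, the core of the TCF/LEF motif, beginning at position −89 from the start. Neither held CACGTG. Among 21 windows of the 10 factors, CACGTG was found in 2 (a downstream start of Lef1 and the upstream start of Runx1), while 7.15% of 32851 windows in the genome held it. CAGCTG and CACCTG were found in 4 windows each (16.3% and 20.2% of all windows) and CTTTGA in 3 (16.0%). A match is a description of letters and not a bound site.

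Runx1 (ENSMUSG00000022952.16, chromosome 16, 92601466 to 92826149, minus strand) encodes a runt domain factor required for early thymocytes and often mutated in leukemia. It had 76.1, 72.4 and 78.3 CPM with MYC on, 131, 125 and 113 CPM at MYC intermediate, and 148, 140 and 149 CPM with MYC off. The 3 groups did not overlap. Runx1 rose by 0.92 ± 0.07 SE on the log2 scale with MYC off against MYC on (edgeR adjusted p = 1.13e-08) and by 0.71 ± 0.07 at MYC intermediate against MYC on (adjusted p = 6.69e-07), and MYC off against MYC intermediate gave 0.20 ± 0.07 (adjusted p = 0.0286).

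Runx3 (ENSMUSG00000070691.10, chromosome 4, 135120652 to 135177990, plus strand), which encodes the runt domain factor of CD8 and cytotoxic cells, was scarce. Its levels were 1.48, 2.25 and 1.84 CPM with MYC on, 1.49, 1.70 and 1.81 CPM at MYC intermediate, and 1.44, 0.705 and 2.09 CPM with MYC off, from 19 to 66 counts per library. The groups overlapped, and no difference was detectable at this depth (log2 fold change −0.40 ± 0.30 SE with MYC off against MYC on, edgeR adjusted p = 0.261). Single libraries moved this value, to −0.11 (adjusted p = 0.739) without MYC off replicate 2 and to −0.75 (adjusted p = 0.048) without MYC off replicate 3. The count ratio of Runx3 to Runx1 was 0.00968, 0.00503 and 0.0140 with MYC off and 0.0194, 0.0310 and 0.0235 with MYC on, with no overlap (log2 difference −1.46, exact two-sided permutation p = 0.1, adjusted p = 0.129). MYC intermediate had 0.0114, 0.0136 and 0.0160 and overlapped MYC off (exact two-sided permutation p = 0.3). The lowest ratio, in MYC off replicate 2, rests on 19 Runx3 counts. In edgeR Runx1 rose by 0.92 between MYC off and MYC on, and the −0.40 of Runx3 was not called.

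The upstream promoters of these paralogs share a pair of RUNX motifs, and are shown with the same capitals. TGTGGT, found in these 2 of the 21 windows (16.8% of all windows), appears here as its complement ACCACA.
Runx1 upstream promoter, chr16:92826025-92826324, minus strand: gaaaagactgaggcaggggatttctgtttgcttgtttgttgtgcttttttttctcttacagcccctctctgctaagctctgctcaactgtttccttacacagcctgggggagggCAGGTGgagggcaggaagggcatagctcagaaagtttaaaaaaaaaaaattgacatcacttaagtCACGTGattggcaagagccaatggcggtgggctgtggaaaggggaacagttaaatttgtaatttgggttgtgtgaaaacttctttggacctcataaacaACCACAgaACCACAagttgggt
Runx3 upstream promoter, chr4:135120395-135120694, plus strand: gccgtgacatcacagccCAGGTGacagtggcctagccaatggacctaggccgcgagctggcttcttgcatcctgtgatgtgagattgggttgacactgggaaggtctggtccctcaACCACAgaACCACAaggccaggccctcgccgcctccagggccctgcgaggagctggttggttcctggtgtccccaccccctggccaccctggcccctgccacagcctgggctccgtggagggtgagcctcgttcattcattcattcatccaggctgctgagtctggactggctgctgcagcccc
Shared run: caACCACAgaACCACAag
The longest run common to both windows was these 18 bases, which begin at position 27 from the Runx1 start and at −136 from the Runx3 start. Among 32851 windows, searched for this run on the gene's strand only, it occurred in 3, those of Runx1, Runx2 and Runx3. Runx1 was called higher with MYC off and Runx3 was not called, and Runx2 had 60 counts over the 9 libraries.

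The tested RUNX partners, like Runx1, were higher with MYC off than with MYC on. Of 7 partners and relatives 5 were tested and all 5 were higher with MYC off against MYC on (median 0.48), beside 27.5% of all genes. For MYC off against MYC intermediate 2 were higher and 3 not called, among them Cbfb (−0.02, edgeR adjusted p = 0.898). Cbfb, the shared β subunit that RUNX proteins need for stable DNA binding, had 90.5, 79.6 and 82.6 CPM with MYC off and 65.0, 57.1 and 54.9 CPM with MYC on (0.48 ± 0.10 SE, edgeR adjusted p = 0.000386). The corepressor genes Cbfa2t3 (2.38), Sin3a (0.50) and Ncor1 (0.35) were the other members with the largest log2 fold changes, and Cbfa2t3 had 6.87 CPM with MYC off and 1.31 CPM with MYC on.

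Ikzf1 (ENSMUSG00000018654.17, chromosome 11, 11685003 to 11772926, plus strand) encodes Ikaros, a zinc finger factor that works with the Mi-2/NuRD chromatin remodeler. It had 296, 302 and 303 CPM with MYC on, 444, 426 and 405 CPM at MYC intermediate, and 454, 471 and 510 CPM with MYC off. The 3 groups did not overlap. The log2 fold change was 0.64 ± 0.06 SE with MYC off against MYC on (edgeR adjusted p = 7.21e-08), 0.51 ± 0.06 at MYC intermediate against MYC on (adjusted p = 2.45e-06) and 0.12 ± 0.06 with MYC off against MYC intermediate (adjusted p = 0.0942). Among relatives, Ikzf2 (Helios) had 9.70 CPM with MYC off and 4.77 CPM with MYC on (0.97), whereas Ikzf3 (Aiolos) had 283.8 and 266.2 CPM (0.06, adjusted p = 0.459).

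Ikaros relatives and Mi-2/NuRD genes went both ways, as did all genes tested (27.5% higher and 27.4% lower with MYC off). Of 15 Ikaros relatives and partners 14 were tested, with 7 higher, 5 lower and 2 not called with MYC off against MYC on (median 0.14). The higher genes include the relatives Ikzf2 and Ikzf5, which are not Mi-2/NuRD genes. The lowered subunit genes were Mta1 (17.9 CPM with MYC off and 49.0 CPM with MYC on, −1.50 log2), Mbd3 (−0.79), Rbbp7 (−0.63), Gatad2a (−0.25) and Hdac2 (−0.21). The paralogs of 3 of these moved the other way, with Rbbp4 at 0.56, Mta2 at 0.46 and Hdac1 at 0.45.

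Tcf3 (ENSMUSG00000020167.14, chromosome 10, 80409514 to 80433647, minus strand) encodes the E2A proteins E12 and E47, basic helix-loop-helix factors that bind E-boxes. It had 333, 316 and 369 CPM with MYC on, 457, 472 and 412 CPM at MYC intermediate, and 496, 483 and 488 CPM with MYC off, with no overlap between groups in CPM. The separation of MYC off from MYC intermediate depends on the scaling. The TMM factors of the edgeR fit were 0.991 for MYC intermediate replicate 2 and 1.03 for MYC off replicate 2. Tcf3 rose by 0.49 ± 0.07 SE on the log2 scale with MYC off against MYC on (edgeR adjusted p = 1.34e-05) and by 0.41 ± 0.07 at MYC intermediate against MYC on (adjusted p = 0.000179). MYC off against MYC intermediate gave 0.08 ± 0.07 (adjusted p = 0.363).

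Tcf12 (ENSMUSG00000032228.16, chromosome 9, 71842688 to 72111871, minus strand) encodes HEB, the E protein that pairs with E2A in thymocytes. Its levels were 437, 425 and 426 CPM with MYC on, 412, 397 and 420 CPM at MYC intermediate, and 431, 433 and 447 CPM with MYC off. MYC off and MYC on overlapped, and the log2 fold change between them was −0.01 ± 0.05 SE (edgeR adjusted p = 0.89), with −0.06 ± 0.05 and 0.05 ± 0.05 at the steps MYC intermediate against MYC on and MYC off against MYC intermediate (adjusted p = 0.381 and 0.481). The count ratio of Tcf12 to Tcf3 was 0.868, 0.896 and 0.916 with MYC off and 1.31, 1.34 and 1.154 with MYC on, which did not overlap (log2 difference −0.51, exact two-sided permutation p = 0.1, adjusted p = 0.129). MYC intermediate had 0.9005, 0.841 and 1.02 and overlapped MYC off.

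Transcripts of Id1, Id2 and Id3, whose proteins bind E proteins and keep them off DNA, were higher with MYC off, as was Tcf3. Id3 had 105.0, 113.4 and 104.6 CPM with MYC off and 60.5, 57.0 and 60.8 CPM with MYC on (log2 fold change 0.82 ± 0.06 SE, edgeR adjusted p = 9.23e-09). Id2 (0.94 ± 0.11) and Id1 (0.93 ± 0.14) were also higher, at 16.7 and 5.42 CPM with MYC off and 8.53 and 2.78 CPM with MYC on, and Id4 had 0 counts, which allows up to 0.0118 CPM over the 9 libraries. The remaining E protein gene, Tcf4 (E2-2), fell to 13.0 CPM with MYC off, against 20.5 CPM with MYC on (−0.68 ± 0.09, adjusted p = 5.29e-06). Over the list of 5, of which 4 were tested, 3 were thus higher and 1 lower (27.5% and 27.4% of all genes). The summed TPM of the 3 E protein genes over that of the Id genes was 2.15, 1.95 and 2.18 with MYC off and 2.82, 2.79 and 3.02 with MYC on, with no overlap (log2 difference −0.46, exact two-sided permutation p = 0.1, adjusted p = 0.15 over 3 tests). MYC intermediate had 2.81, 2.74 and 2.46 and overlapped MYC on in TPM (log2 difference −0.11). Summed counts weight genes of larger deposited length more. They gave 9.67, 9.31 and 8.76 at MYC intermediate and 11.1, 10.99 and 11.4 with MYC on, with no overlap (log2 difference −0.27).

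**Figure D2:**
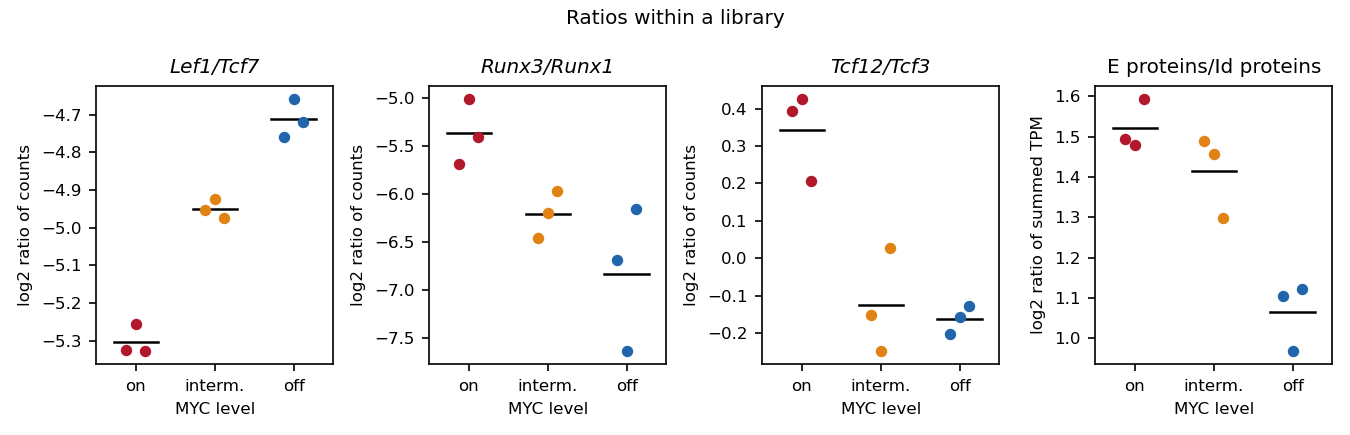
Log2 ratios within each library for 3 pairs of factors (counts) and for summed E protein over summed Id protein genes (TPM), with 1 point per library, a line at each group mean and axes that do not start at 0. Lef1/Tcf7 averaged −5.30 with MYC on, −4.95 at MYC intermediate and −4.71 with MYC off, and the E protein to Id ratio was 1.52, 1.41 and 1.06.

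Other partners of E proteins were few. Of 8 SCL/LMO partners 3 were tested and all 3 were higher with MYC off against MYC on (median 1.34), beside 27.5% of all genes. Of these 3, Cbfa2t3 was also counted among the RUNX partners above. Lmo4, a LIM-only adaptor, had 81.8 CPM with MYC off and 31.5 CPM with MYC on (1.34), and Ldb1, which bridges such complexes, had 96.3 and 74.4 CPM (0.34). The T-ALL oncogenes Tal1, Lmo2, Lyl1 and Lmo1 had 1, 11, 24 and 0 counts over the 9 libraries.

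Mef2c (ENSMUSG00000005583.16, chromosome 13, 83504034 to 83667080, plus strand) encodes a MADS box factor of lymphoid progenitors, B cells and myeloid cells, and is an oncogene of immature T-ALL. It was the only factor that fell. It had 5.46, 5.19 and 4.53 CPM with MYC on, 3.17, 3.37 and 4.11 CPM at MYC intermediate, and 1.71, 2.23 and 2.47 CPM with MYC off, from 60 to 133 counts per library. The 3 groups did not overlap. The log2 fold change was −1.28 ± 0.17 SE with MYC off against MYC on (edgeR adjusted p = 9.7e-06), −0.50 ± 0.17 at MYC intermediate against MYC on (adjusted p = 0.0234, not called) and −0.78 ± 0.175 with MYC off against MYC intermediate (adjusted p = 0.0025), where 14.7% of all genes were called lower. This last call was lost without MYC intermediate replicate 3 (adjusted p = 0.0109) or MYC off replicate 1 (adjusted p = 0.0116).

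Mef2c was scarce, and none of its relatives was called lower. Of 7 MEF2 relatives and class IIa histone deacetylases, which repress MEF2 proteins, 6 were tested. With MYC off against MYC on, 3 were higher (27.5% of all genes), 0 lower (27.4%) and 3 not called (median 0.21). Hdac7, the class IIa deacetylase of thymocytes, had 392.7, 440.0 and 448.4 CPM with MYC off and 184.9, 194.8 and 201.8 CPM with MYC on (1.10 ± 0.06 SE, edgeR adjusted p = 2.07e-10). Hdac5 (0.27) and Mef2a (0.22) also rose. Genes of plasmacytoid dendritic cells, another source of Mef2c, summed to 6.62 to 7.84 CPM with MYC off and 12.3 to 15.6 CPM with MYC on and so moved with it. Of that list of 5, Siglech and Spib had 0 counts, Bst2 was lower (−1.80) and Ly6d higher (2.40), and their part in the Mef2c result was not tested.

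Other progenitor factors were nearly silent. Of 23 stem and progenitor transcription factor genes, 10 had 0 counts in all libraries and 1 was tested, Mecom, which had 20.4 CPM with MYC off and 25.9 CPM with MYC on (−0.38, edgeR adjusted p = 0.000971). Spi1, the myeloid factor PU.1 that early T cell precursors switch off, had 4 counts over the 9 libraries.

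The larger part of most increases was already present at MYC intermediate. There 7 factors were higher than with MYC on (17.4% of all genes were), 0 were lower (17.2%) and 3 were not called, so that 7 were called in either direction (34.6%), while MYC off against MYC intermediate gave 1 higher (Bcl11b), 1 lower (Mef2c) and 8 not called, 2 in either direction (24.7%). In CPM, groups did not overlap for 7 higher (26.0%) and 2 lower (27.6%) factors at MYC intermediate against MYC on, and for 7 higher (26.6%) and 2 lower (21.0%) with MYC off against MYC intermediate. For single factors, overlap was judged throughout on CPM by library total, without the TMM scaling factors of the edgeR fit. These factors ran from 0.976 (MYC intermediate replicate 1) to 1.03 (MYC off replicate 2). Narrow separations, such as those of Lef1, Gata3, Tcf3 and Tcf12 between MYC off and MYC intermediate, therefore depend on the scaling. On the log2 scale, with 0% at the MYC on mean and 100% at the MYC off mean, MYC intermediate stood at 86.4% for Gata3, 85.3% for Lef1, 75.2% for Tcf3, 74.7% for Ikzf1, 73.9% for Runx1, 67.4% for Bcl11b and 41.2% for Mef2c. Leaving out any 1 library moved Gata3 between 82.9% and 89.4%, Bcl11b between 65.0% and 70.1%, and Mef2c between 34.96% and 49.96%. The median was 60.1% (quartiles 48.3% and 69.0%) over 3072 genes called higher with MYC off by more than 0.4 on the log2 scale and counted in every library, and 52.7% over 3211 genes called lower by as much. All these positions come from CPM by library total and depend on the scaling. The edgeR fit, with its TMM factors, gave 1.13 of 1.26 for Gata3 and 0.63 of 0.69 for Lef1, somewhat closer to MYC off. It gave −0.50 of −1.28 for Mef2c, somewhat closer to MYC on. These positions are a description, since both steps share the MYC intermediate libraries.

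MYC intermediate was also tested against the midpoint of the other two groups in log2 units. Gata3 (0.50 ± 0.05 SE, edgeR adjusted p = 2.57e-05), Lef1 (0.28 ± 0.05, adjusted p = 0.00288) and Tcf7 (0.23 ± 0.05, adjusted p = 0.00964) lay above it, and 0 factors lay below. Over all genes 1.7% were called above and 0.184% below, 1.89% in all. The number of factors called varied from 1 to 4 when 1 library was left out. It was 1, Gata3, without MYC intermediate replicate 1 or without MYC intermediate replicate 2. DESeq2 called 5 factors and the fit with no filter 6.

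**Figure D3:**
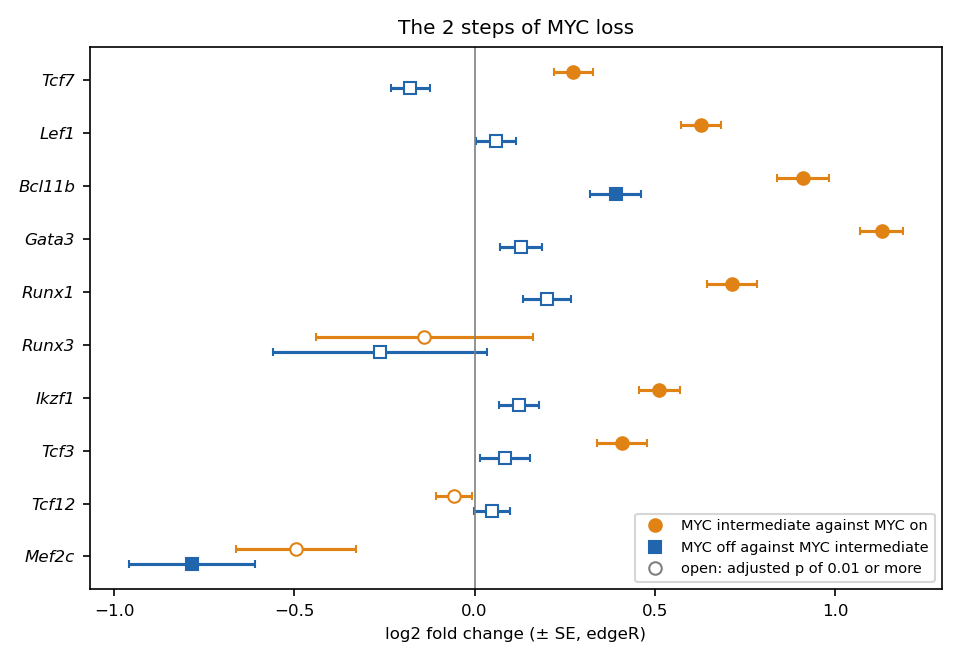
Log2 fold change (± SE, edgeR) of each factor for MYC intermediate against MYC on (circles) and MYC off against MYC intermediate (squares), filled where the adjusted p is under 0.01. Gata3 lies at 1.13 and 0.13, Bcl11b at 0.91 and 0.39, and Mef2c at −0.50 and −0.78.

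Of 47 other transcription factors of T cell development 40 were tested, of which 27 were higher, 2 lower and 11 not called with MYC off against MYC on (median 0.64, against 0.03 over all genes, of which 27.5% were higher). This list was chosen with earlier results known. Tox, a factor of positive selection, had 50.3 CPM with MYC off and 3.85 CPM with MYC on (3.67). Tbx21 (1.90) and Sox13 (1.58) were scarcer, at 5.73 and 5.83 CPM with MYC off and 1.51 and 1.86 CPM with MYC on. The lowered genes were Zbtb16, the factor of innate-like T cells (4.31 CPM with MYC off and 9.74 CPM with MYC on, −1.23), and Stat5a (−0.52). The Notch target Hes1 had 0 counts.

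Genes known as targets of these factors were mostly higher. Of 26 such genes 23 were tested, with 20 higher, 1 lower and 2 not called with MYC off against MYC on (median 0.99). Among all genes tested, 27.5% were higher and 27.4% lower. The target list was also chosen with earlier results known. Cd5 (4.29), Cd6 (4.01), Trac (2.54) and Cd27 (2.28) had the largest log2 fold changes. The recombinase genes Rag1 and Rag2, targets of E proteins, had 773.9 and 45.1 CPM with MYC off and 350.5 and 15.7 CPM with MYC on (1.11 and 1.48). Id2, which Bcl11b and E proteins are known to restrain, was higher (0.94), and Il7r was the lowered member, at 0.910 CPM with MYC off and 2.20 CPM with MYC on (−1.33). Ptcra (0.49, edgeR adjusted p = 0.34) and Axin2 were not called.

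**Figure D4:**
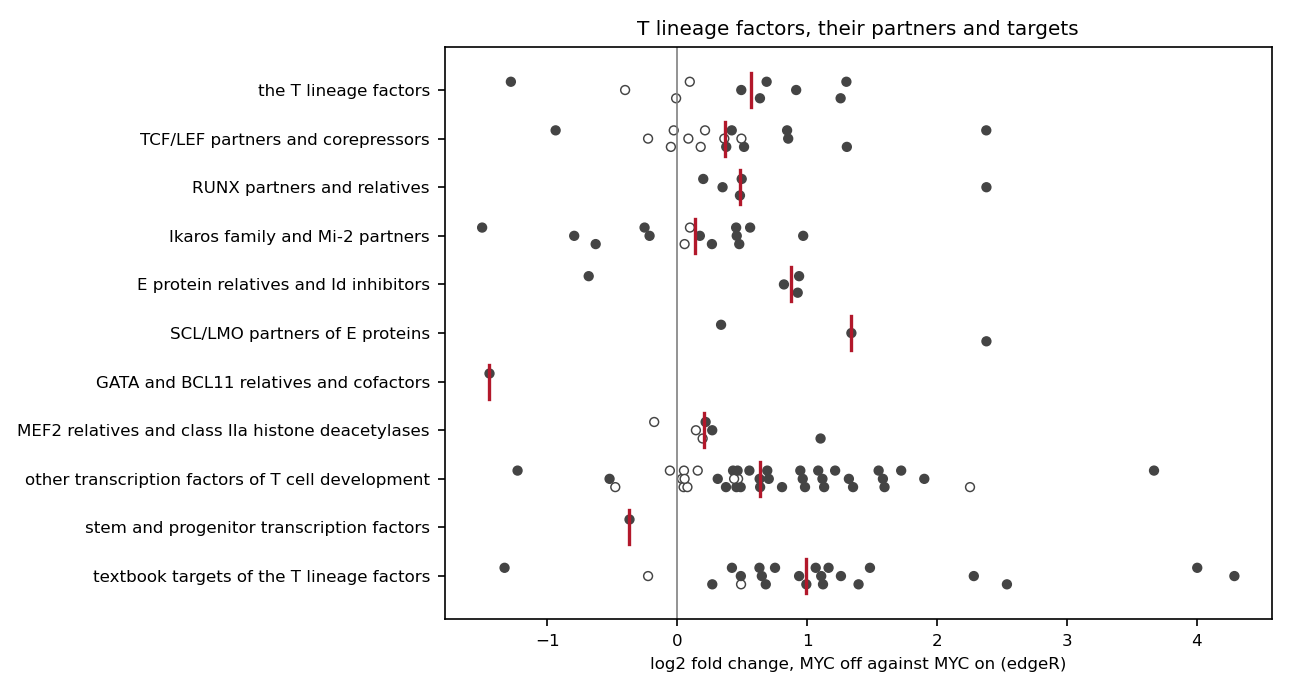
Log2 fold change with MYC off against MYC on for the 10 factors and the tested genes of 10 lists of partners, relatives and targets, with 1 point per gene (filled where the edgeR adjusted p is under 0.01, spread vertically for legibility) and a red line at each median. The medians were 0.57 for the factors, 0.64 for other T cell factors and 0.99 for targets, and lists with 1 to 5 tested genes hold too few points for a median to be read closely.

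Antisense genes lie across RefSeq promoter windows of 3 factors. For Gata3 that window lies inside the gene span given above, whose 5′ end is at 9890034. Gm13256 covers the Gata3 promoter window and had 41.0, 45.4 and 42.8 CPM with MYC off and 17.8, 14.9 and 17.3 CPM with MYC on (log2 fold change 1.33 ± 0.10 SE, beside 1.26 for Gata3). Gm43352 covers 2 of 4 Lef1 windows and had 56.7, 52.6 and 55.5 CPM with MYC off and 25.4, 24.1 and 23.5 CPM with MYC on (1.14 ± 0.08, beside 0.69 for Lef1). A630014C17Rik covers both Tcf7 windows and gave 0.29 ± 0.09, beside 0.10 for Tcf7. A further antisense gene, Gm26626, lies inside Runx1 and gave 0.84 ± 0.11, beside 0.92. These genes were chosen after their values were seen, and in libraries without strand marks their reads cannot be told apart from those of the factors where exons overlap.

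The genes nearest to each factor in pattern were found by the root mean square difference of log2 CPM, centered per gene over the 9 libraries, among protein-coding genes with a mean of at least 5 CPM. Lef1 was nearest to Cd28 (0.0558) and Ets1 (0.0573), Ikzf1 to Camk4 (0.0400) and Gtse1 (0.0422), Bcl11b to Ankrd44 (0.0369) and Acp5 (0.0688), and Gata3 to E2f8 (0.0760) and Lmo4 (0.0917). Runx1 was nearest to C2cd2l and H2-Q1, Tcf3 to Cenpm and Dnal4, Tcf7 to Slc33a1 and Fkbp14, and Tcf12 to Ccser2 and Pdha1, all at 0.0325 to 0.0490. Mef2c had no such close neighbor (Polr1e, 0.134), nor had Runx3 (Tbc1d32, 0.335). Among the factors themselves, Lef1 and Ikzf1 were closest (0.0739).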

How the data were processed

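Polyadenylated RNA was copied with oligo(dT) priming (SMART-Seq v4) and made into Nextera XT libraries, which do not mark strand. Per the submitters' processing notes, reads went through cutadapt 1.16, STAR 2.5.4b and featureCounts on mm10. The annotation release and counting options are not given in the sources used here. The authors deposited whole-number counts per gene and library. Their deposited score column holds reads per kilobase, and FPKM and TPM values were deposited beside it. A deposited fraction column ranks genes within a library, and FPKM, score and fraction were not used. Of 53380 rows, 53274 matched GENCODE release M21 by identifier.

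Counts were tested in R 4.3.3 with edgeR 4.0.16 (TMM, default filter, quasi-likelihood F test, group as the term, all 9 libraries, threshold 0.01). The standard error is the log2 fold change over the root of F. Exact permutation tests used SciPy 1.17.1. DESeq2 1.42.0, other scalings and filters, thinned counts, a replicate block and leaving out each library were the alternatives. On simulated counts with 13866 genes tested for MYC off against MYC on, edgeR recovered 8 of 64 genes changed by a log2 fold change of 0.5, 54 of 62 changed by 1 and 73 of 74 changed by 2, with 0 false calls. The simulation gave every gene the same fixed spread, not taken from these data, and changed only those genes. In the data 54.9% of genes were called. These shares therefore check the code and do not give the power or the false calls in these data. Deviations from group means correlated weakly between MYC off and MYC on libraries of the same number (r = 0.38, 0.25 and 0.22 for numbers 1 to 3, over 9944 genes). Unlike numbers gave −0.38 to 0.15 there. For MYC on and MYC intermediate r at the same number was 0.13, −0.18 and −0.16, and for MYC intermediate and MYC off 0.37, 0.03 and 0.08. Unlike numbers reached 0.38 and 0.26 in these comparisons. The labels do not state a pairing, and these values do not establish one. The members and all lists were chosen with earlier results of these data known. From each list the text names up to 4 called genes of at least 5 CPM in 1 group with the largest change, every E protein relative and Id gene, and otherwise genes chosen after their values were seen. Some genes that this rule or the marker lists would name are not reported here.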

Additional observations from a re-analysis of the deposited data

How the results depend on the processing

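For MYC off against MYC on and for MYC intermediate against MYC on, no factor changed its call or, if called, its direction under any of 17 alternative fits. Thresholds did change calls. Mef2c was lower in MYC intermediate at an adjusted p under 0.05 (1 factor instead of 0), and requiring a log2 fold change above 0.5 left 5 factors higher in MYC off against MYC on, without Tcf3 (0.49), and 5 in MYC intermediate against MYC on, without Tcf7 (0.27) and Tcf3 (0.41). A fit with a replicate block changed no call of a factor between groups and gave 7962 genes in MYC off against MYC on, and it called 4 factors instead of 3 off the midpoint. MYC off against MYC intermediate was less stable. Factors higher there were 2 with library size alone and at an adjusted p under 0.05, 0 above a log2 fold change of 0.5, and 1 to 2 with 1 library left out. Factors lower were 2 with DESeq2, with no filter and at 0.05, and 0 to 1 with 1 library left out. Tcf7 (DESeq2 −0.18, no filter −0.20, without MYC off replicate 1 −0.22) and Runx1 (library size 0.25, without MYC intermediate replicate 1 0.26) were the genes gained. Genes called in all numbered 5241 at 0.05 and 1743 above 0.5, and 2747 above 0.5 for MYC intermediate against MYC on. Factors off the midpoint were 5 with DESeq2, 6 with no filter, 6 at 0.05, 1 above 0.5 and 1 to 4 with 1 library left out. Leaving out 1 library gave 6880 to 8049 genes for MYC off against MYC on, 4032 to 4998 for MYC intermediate against MYC on and 2491 to 3369 for MYC off against MYC intermediate. From counts in place of TPM, the log2 difference of the E protein to Id ratio was −0.62 for MYC off against MYC on and −0.27 for MYC intermediate against MYC on. Runx3, at 19 to 66 counts per library, ranged from −0.75 to −0.11 in MYC off against MYC on.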
